A study of Homo sapiens and Mus musculus with 18 samples.

Results

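Primed RUES2-GLR human embryonic stem cells (ESCs) were compared by bulk RNA sequencing with the early RA-gastruloids made from them, collected 24 h after aggregation. Gastruloids are aggregates of pluripotent cells that break symmetry and lay out parts of a body axis, and RA-gastruloids are human gastruloids that receive retinoic acid. RUES2-GLR is an established human ESC line that carries reporters for germ-layer genes, here grown as primed (post-implantation-like) cells. The comparison took every gene with enough counts in the 4 libraries concerned, which left 15003 of 44910 genes in the human table, and 29907 genes were not tested. Each group held 2 libraries, described by the study as biological duplicates of a stage collected within 1 experimental batch. The p-values therefore measure the spread between duplicates only. The study does not say whether the ESC and gastruloid RNA samples shared a batch. The series holds 18 samples, among them 10 human libraries in 5 groups (the H9 line as naive and as primed cells, the RUES2-GLR line as primed cells, and its RA-gastruloids at 24 h and 120 h). The ESCs were kept in StemFlex medium on Geltrex. The gastruloids came from cells moved to NutriStem on vitronectin, treated with the WNT agonist CHIR99021 and then with CHIR99021 plus retinoic acid, dissociated, and aggregated in Essential 6 medium with CHIR99021 and the ROCK inhibitor Y-27632. The study lists no retinoic acid in the medium between aggregation and collection at 24 h, and added it again only later. The contrast therefore holds the change of medium and matrix, the WNT agonist, retinoic acid, the ROCK inhibitor, aggregation and any batch difference together. Their effects cannot be told apart in these 4 libraries.

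WNT ligands bind Frizzled receptors with LRP5 or LRP6 co-receptors, which halts the destruction complex of APC, AXIN and GSK3 and lets beta-catenin enter the nucleus to act with TCF and LEF factors. CHIR99021 inhibits GSK3 and so enters the pathway below the receptors. In the embryo, WNT, NODAL, BMP and FGF signals start the primitive streak, where epithelial cells of the epiblast lose E-cadherin and become mesoderm and endoderm, while progenitors at the tail end go on to build trunk neural tissue and somites. Retinoic acid acts through nuclear receptors, switches on 3′ HOX genes and is broken down by CYP26 enzymes.

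The 4 libraries held 3681739 to 14196716 gene counts, and the smallest was replicate 2 of the ESCs. Transcripts of the mitochondrial genome took 21.4% and 22.4% of the counts in the ESC libraries, 5.17% and 5.24% in the early RA-gastruloid libraries, and 2.68% to 6.71% in the other 6 human libraries. Early RA-gastruloid replicate 1 had at least 1 count in 34354 genes and replicate 2 in 24085, at like depth. The genes seen in replicate 1 and absent from replicate 2 had a median of 1 count. Across log2 CPM (counts scaled to the TMM-adjusted library size) the duplicates correlated with r of 0.982 for the ESCs and 0.990 for the gastruloids, over the tested genes of 1 library pair each.

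Differentially expressed transcripts (DETs) were those with a Benjamini-Hochberg adjusted p below 0.05 in edgeR's quasi-likelihood test and a change of more than 2-fold. Of the tested genes, 1911 (12.7%) rose and 3015 (20.1%) fell in early RA-gastruloids, 32.8% in all. These shares are the background against which every count of list members below is to be read. Genes near 0 in 1 group passed the filter only through the other group and so had to differ, and list counts that hold such genes are descriptions. For some of these lists, the count with at least 10 counts in each of the 4 libraries is given beside it. Other list counts also hold genes below that level and are given without it. Among them are the counts of pluripotency, TCF and LEF, WNT feedback, mesenchymal, matrix, and YAP and TAZ genes. A further 4892 genes passed the adjusted p at a change of 2-fold or less. Of the 4926 DETs, only 19 had groups that overlapped, so separation of the groups adds little to a call. For genes near 0 in 1 group it followed from the filter. The median log2 fold change of all tested genes was 0.073. In the plot of mean levels, the genes furthest above the diagonal were at or near 0 in the ESCs, and 85 of the genes that rose had no count in either ESC library. Of the genes that fell, 11 had no count in either early RA-gastruloid library. Over all 44910 genes, 16825 had no count in either ESC library and 8531 had none in either gastruloid library, so these numbers also reflect detection. With bulk RNA, fewer cells of a type and less RNA per cell cannot be told apart, for this and every later result.

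**Figure D1:**
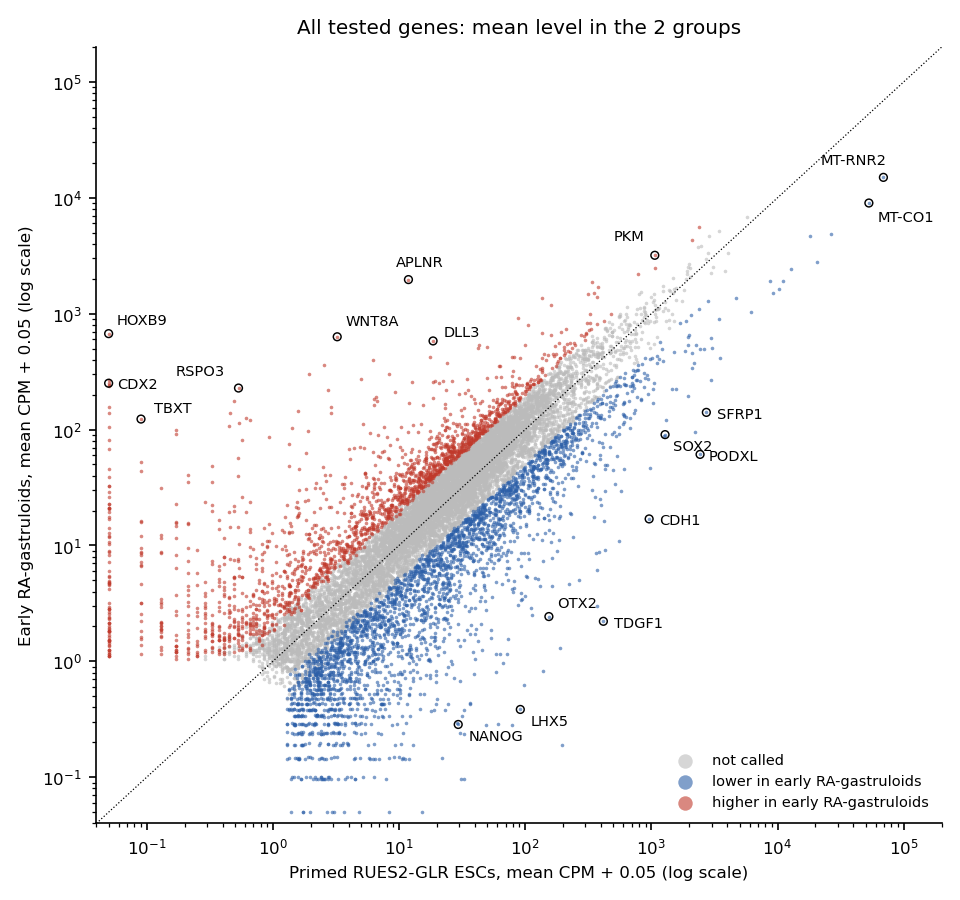
Mean CPM of each tested gene (mean of 2 libraries, plus 0.05, log scales) in primed RUES2-GLR ESCs (x axis) and early RA-gastruloids (y axis), with the 1911 genes that rose in red, the 3015 that fell in blue and the rest in grey. HOXB9, CDX2 and TBXT sit at the left edge, at or near 0 in the ESCs, while the 2 highest points, MT-RNR2 and MT-CO1, lie below the dotted line of equal levels.

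The genes that mark pluripotent cells fell broadly but to very different degrees. Of 34 pluripotency genes, all of them tested, 29 fell, 2 rose and 3 were not called, with a median log2 fold change of -2.86 against 0.073 over all tested genes. As a check of the primed label, TFCP2L1, a naive-state factor, stood at 1.98 CPM against 166 CPM in naive H9 ESCs.

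NANOG (chr12:7787794-7799146), a core pluripotency factor, was counted at 28.7 and 30.1 CPM in the ESC libraries and 0.372 and 0.0992 CPM in the early RA-gastruloid libraries. Its log2 fold change was -6.88 ± 0.29 (SE, here and below) with an adjusted p of 5.7e-15. SOX2, its partner factor, fell from 1273 and 1296 CPM to 87.4 and 93.4 CPM (log2 fold change -3.83 ± 0.11, adjusted p = 1.8e-18). POU5F1, which encodes OCT4, kept a much larger share of its level than either. POU5F1 was at 594 and 633 CPM in the ESCs and 248 and 238 CPM in the gastruloids, a log2 fold change of -1.33 ± 0.10 (adjusted p = 2.7e-11), so 39.6% of its mean ESC level was still counted at 24 h, against 7.04% for SOX2 and 0.800% for NANOG. For all 3 genes both ESC libraries lay above both gastruloid libraries. POU5F1 and NANOG have processed pseudogenes, which share sequence with them and were counted by unique alignment, so their absolute levels are uncertain.

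TDGF1, the NODAL co-receptor also called CRIPTO, had the largest fitted fall of this list among genes at or above 10 CPM in the ESCs with more than 3 counts in a gastruloid library. Its levels were 413 and 421 CPM in the ESCs and 1.95 and 2.38 CPM in the gastruloids (log2 fold change -7.59 ± 0.16, adjusted p = 6.5e-20). FOXD3, a repressor needed to keep pluripotent cells, had 13.9 and 16.2 CPM in the ESCs and no count in either gastruloid library, at least 105-fold lower against a floor of 3 counts over both libraries. The anterior epiblast factor OTX2 dropped from a mean of 154 to 2.39 CPM and the chromatin factor UTF1 from 11.9 to 0.0929 CPM. The de novo DNA methyltransferase DNMT3B fell from 833 and 833 to 173 and 190.2 CPM (log2 fold change -2.20 ± 0.10, adjusted p = 6.4e-15). DPPA4, a chromatin-bound ESC factor, fell less, from 433 and 361 to 123 and 126 CPM (log2 fold change -1.68 ± 0.10, adjusted p = 2.3e-12).

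All 8 surface molecules of the list fell, among them the sialomucin PODXL (mean 2433 to 61.01 CPM), the adhesion molecule EPCAM (969 to 46.2 CPM) and THY1 (519 to 33.97 CPM). Some RNA-binding genes were exceptions. LIN28A, which blocks let-7 maturation, was not called, at 905 and 796 CPM against 693 and 693 CPM (log2 fold change -0.30 ± 0.095). Its paralogue LIN28B rose from 83.98 and 84.5 to 201 and 210.2 CPM (log2 fold change 1.29 ± 0.12, adjusted p = 2.6e-09). Without ESC replicate 1, 1 and not 2 of the primed and general factors rose. SALL4 (log2 fold change 0.74 ± 0.11) and the somite-segmentation factor VRTN (-0.80 ± 0.10) were the other uncalled members.

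Genes of the primitive streak and of nascent mesoderm, by contrast, came up from near 0. Of 20 genes, 19 had enough counts, 17 of them rose and 2 were not called. Several passed the filter only through the gastruloid libraries, and with at least 10 counts in each library 2 transcription factors and 1 of the signals and receptors rose. GSC, an organizer factor, was not tested, at 0.324 and 1.14 mean CPM.

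TBXT (Brachyury, chr6:166157656-166168700), the streak's defining T-box factor, had 0.0805 and 0 CPM in the ESC libraries, 1 count in all, and 120.2 and 126 CPM in the gastruloid libraries. The ratio was 1909 with an exact 95% counting interval of 342 to 75426, which like the others below covers counting error only. MIXL1, a homeobox gene of the streak, was at 0.242 and 0.324 CPM in the ESCs and 46.7 and 50.02 CPM in the gastruloids (log2 fold change 7.51 ± 0.30, adjusted p = 5.6e-16). Both genes were separated completely between the groups.

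Genes of presomitic mesoderm were among those that rose. TBX6, the switch from neural to paraxial mesodermal fate, rose from 2.74 and 2.27 to 346 and 378 CPM (log2 fold change 7.10 ± 0.19, adjusted p = 9.2e-19). MSGN1, a direct WNT target that drives presomitic mesoderm, had no count in the ESCs and 262 and 277 CPM in the gastruloids, at least 1392-fold higher. EOMES, the T-box factor of the anterior streak and endoderm, was counted at 0.0805 and 0 CPM in the ESCs and 2.42 and 1.98 CPM in the gastruloids (ratio 34.2, interval 5.85 to 1381), and MESP1, a marker of cardiogenic mesoderm, reached a mean of 10.3 CPM from 0.485 CPM.

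Among signals and receptors, APLNR (chr11:57233577-57237250), the apelin receptor of mesoderm, had the fourth largest gain in CPM among the DETs. It was counted at 8.45 and 15.2 CPM in the ESCs and 1955 and 1982 CPM in the gastruloids (log2 fold change 7.58 ± 0.17, adjusted p = 7.1e-20). FGF17, an FGF of the streak, rose from 1.53 and 2.27 to 288 and 311 CPM (log2 fold change 7.46 ± 0.20, adjusted p = 5.3e-19), and PDGFRA, a receptor of nascent mesoderm, from a mean of 1.53 to 145 CPM. NODAL and its antagonist LEFTY2 were not called. NODAL was at 3.38 and 2.91 CPM in the ESCs and 2.14 and 2.48 CPM in the gastruloids (log2 fold change -0.51 ± 0.29, adjusted p = 0.127) and LEFTY2 at 8.86 and 9.07 CPM in the ESCs and 6.78 and 6.35 CPM in the gastruloids (log2 fold change -0.44 ± 0.20, adjusted p = 0.0589).

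**Figure D2:**
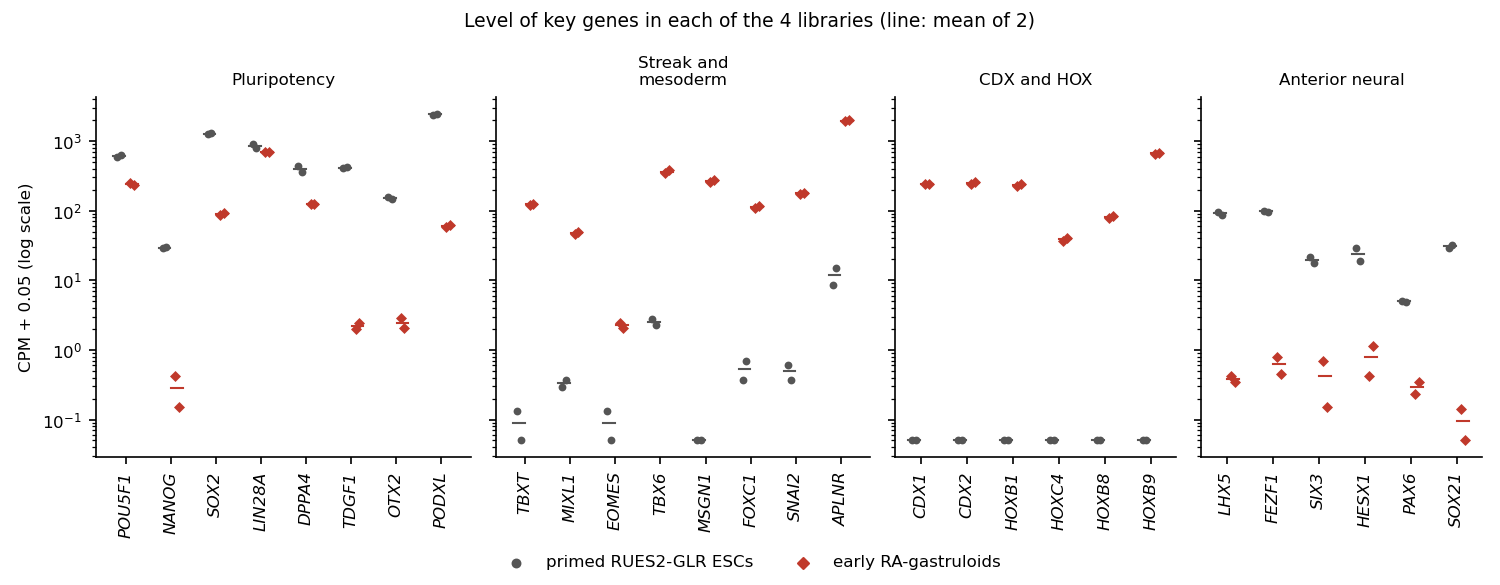
CPM plus 0.05 (log scale) of key genes in each of the 2 primed RUES2-GLR ESC libraries (grey circles) and the 2 early RA-gastruloid libraries (red diamonds), with a line at each mean. The groups are separated for every gene drawn, LIN28A by the least, and the CDX and HOX genes drawn have no count in the ESCs.

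Posterior identity genes were among the clearest on-off differences. CDX1 and CDX2, homeobox factors of the tail end that stand upstream of trunk HOX genes, had no count in either ESC library. CDX1 was at 241 and 239.7 CPM and CDX2 (chr13:27960918-27969315) at 246 and 257 CPM in the gastruloid libraries, at least 1242-fold and 1298-fold higher. CDX4 was not called, with a mean of 0.767 CPM against 1.34 CPM. The caudal factors NKX1-2 (4.88 to 70.5 CPM), SP8 (15.5 to 162 CPM) and GBX2 (4.64 to 27.8 CPM) rose from a measurable start. Of 15 axial progenitor genes, 14 were tested, 11 rose and only CYP26A1 fell. With at least 10 counts in each library, 3 caudal factors and 3 caudal signals rose.

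The HOX genes lie in 4 clusters and are numbered from the 3′ end, the low numbers being used earliest and furthest towards the head. Of the 39 HOX genes in the list, 23 were tested and rose and 16 were not tested. Of the tested HOX genes, HOXA2 alone had an ESC count, at a mean of 0.0403 CPM, so the filter could pass these genes only through the gastruloid libraries and their count is a description. In paralog groups 1 to 3, 8 of 8 were tested, in groups 4 to 6 8 of 10, and in groups 7 to 9 7 of 9. None of the 12 genes of groups 10 to 13 was tested, and their gastruloid means ran from 0 CPM for HOXC13 to 1.00 CPM for HOXB13.

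HOXB1, a 3′ HOX gene that retinoic acid switches on in the hindbrain, was at 230.1 and 242 CPM in the gastruloids (at least 1221-fold higher). HOXC4 reached 37.3 and 40.3 CPM (at least 200.5-fold). HOXB9 (chr17:48621156-48626358), from the 5′ part of its cluster, was at 660.2 and 685 CPM (at least 3477-fold). Per kilobase of annotated length, HOXB9 had the highest gastruloid level of the tested HOX genes, 260.1 CPM per kb. Within the HOXB cluster it was followed by HOXB1 at 95.03, HOXB2 at 42.6 and HOXB8 at 34.02 CPM per kb. The HOXB gene after HOXB8 towards the 3′ end, HOXB7, was at 5.90 CPM per kb, so the counted levels did not follow the order along the cluster. Overlapping annotation can take reads from a gene, so low levels within the cluster are uncertain.

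Genes of the WNT pathway changed in both directions. Of 76 genes, 66 were tested, 18 rose and 27 fell, with a median log2 fold change of -0.43. Among ligands, 5 rose (WNT3, WNT3A, WNT5A, WNT5B and WNT8A) and 6 fell (WNT1, WNT4, WNT7B, WNT8B, WNT9A and WNT10B), WNT2B was not called and the other 7 were not tested. With at least 10 counts in each library, 3 ligands rose and 1 fell. WNT8A, a ligand of the streak, rose from 2.82 and 3.56 to 601 and 663 CPM (log2 fold change 7.72 ± 0.17, adjusted p = 6.5e-20), and WNT3A, which maintains tail-end progenitors, from 0.161 and 0.648 to 139.8 and 137 CPM (log2 fold change 9.02 ± 0.33, adjusted p = 1.2e-16). WNT5A, a mostly non-canonical ligand, went from a mean of 6.17 to 401 CPM. The ligands that fell started low, between 2.62 CPM for WNT1 and 8.72 CPM for WNT4 in the ESCs. Per kilobase, WNT8A was at 317 CPM per kb in the gastruloids, WNT5A at 56.03, WNT3A at 46.3, WNT5B at 41.8 and WNT3 at 2.38 CPM per kb.

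Receptor genes mostly fell. Of 21 tested receptors, co-receptors and R-spondins, 12 fell and 3 rose (FZD10, LGR5 and RSPO3, each with under 10 counts in at least 1 ESC library). FZD5 fell from 258 and 279 to 5.57 and 4.47 CPM (log2 fold change -5.73 ± 0.14, adjusted p = 2.7e-19), FZD7, another Frizzled receptor, from a mean of 1576 to 226 CPM, and ROR1, a receptor for WNT5A, from 348 to 17.6 CPM. FZD10 rose from 2.82 to 139.6 CPM. RSPO3 (chr6:127118671-127199481), a secreted protein that protects Frizzled receptors from degradation, had the largest fitted rise among DETs at or above 10 CPM with more than 3 counts in an ESC library. It was at 0.322 and 0.648 CPM in the ESCs and 221 and 235 CPM in the gastruloids (log2 fold change 9.17 ± 0.23, adjusted p = 3.0e-19). LGR5, an R-spondin receptor, stayed low, at a mean of 2.10 CPM.

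Inside the cell, 8 of 10 destruction complex genes, CTNNB1, APC and GSK3B among them, were not called, and CSNK1A1, the priming kinase of beta-catenin (49.6 and 53.7 to 136 and 138 CPM, log2 fold change 1.42 ± 0.11, adjusted p = 9.5e-11), and DVL2 (45.8 to 117 CPM) rose. Of the 4 TCF and LEF factors, 2 rose and 2 fell. LEF1 rose from 4.11 and 1.30 to 214 and 224 CPM (log2 fold change 5.98 ± 0.19, adjusted p = 1.0e-17) and TCF7 from 9.98 and 8.42 to 37.4 and 38.01 CPM (1.98 ± 0.16, adjusted p = 2.6e-10). TCF7L1, the main repressive TCF of ESCs, fell from a mean of 115 to 46.3 CPM, and TCF7L2 fell from 38.4 and 29.1 to 9.57 and 11.9 CPM (log2 fold change -1.71 ± 0.16, adjusted p = 2.0e-09).

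Of 19 tested feedback targets and inhibitors, 6 rose and 7 fell. SP5, a zinc finger factor switched on by beta-catenin, rose from 7.25 and 11.3 to 209.98 and 214 CPM (log2 fold change 4.67 ± 0.18, adjusted p = 3.0e-16). NOTUM, which removes the lipid of WNT ligands, rose from 0.644 and 1.62 to 14.4 and 12.6 CPM (3.98 ± 0.37, adjusted p = 1.8e-09), and DKK1, which blocks LRP co-receptors, from 5.15 and 6.15 to 32.98 and 33.7 CPM (2.62 ± 0.20, adjusted p = 1.1e-10). NKD1, APCDD1 and TNFRSF19 were the others that rose.

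AXIN2, the usual readout of the pathway, was separated between the groups without passing the fold threshold. It was at 21.9 and 17.8 CPM in the ESCs and 38.9 and 42.2 CPM in the gastruloids (log2 fold change 0.98 ± 0.14, adjusted p = 2.4e-06), and it passed without ESC replicate 1 (1.12) or without gastruloid replicate 1 (1.04). The secreted antagonist SFRP1 had the largest fall of the group, from 2624 and 2834 to 139.8 and 142 CPM (log2 fold change -4.28 ± 0.10, adjusted p = 2.4e-19). CCND1, often called a WNT target, was at 138 and 141 CPM in the ESCs and 131 and 126 CPM in the gastruloids and was not called (log2 fold change -0.12 ± 0.10, adjusted p = 0.328).

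**Figure D3:**
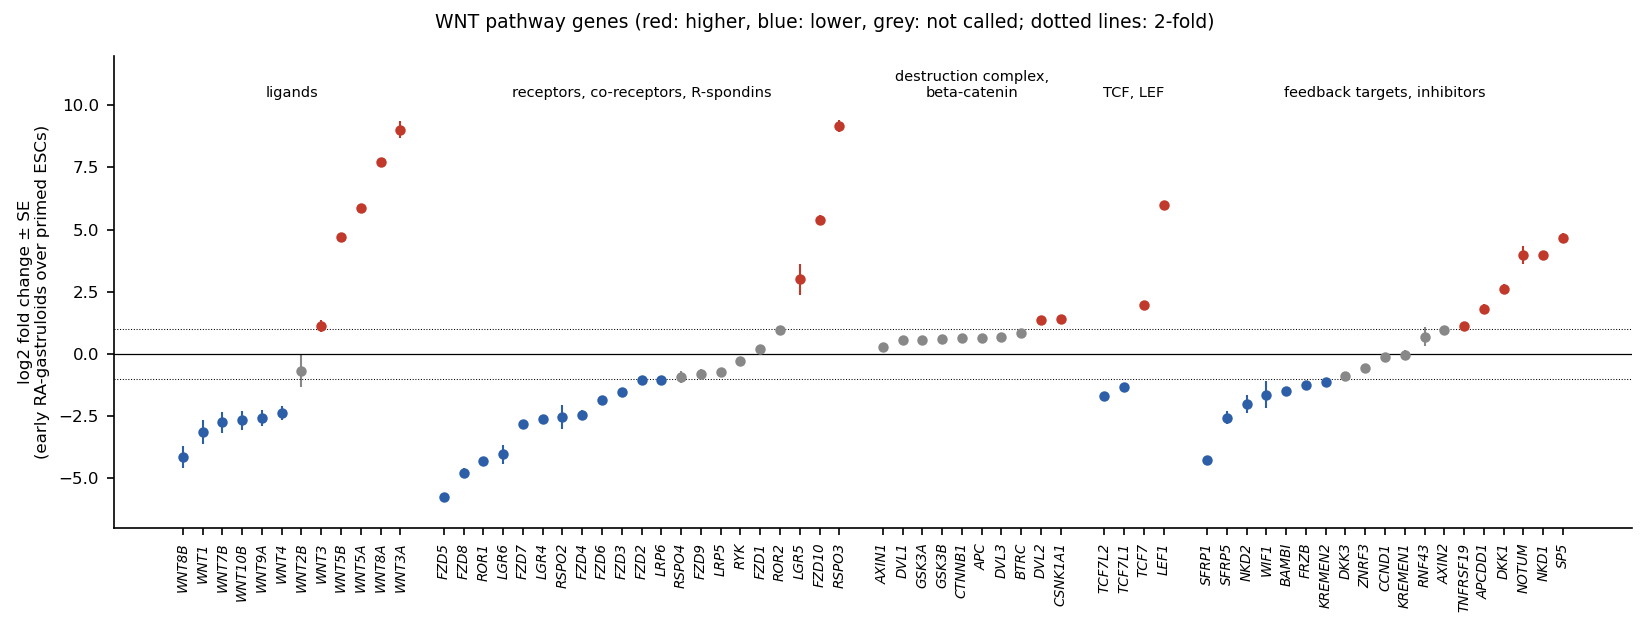
Log2 fold change with its SE (y axis) for the tested WNT pathway genes with more than 3 counts in each group, ordered within their roles (x axis), with genes that rose in red, that fell in blue and uncalled ones in grey. Ligands and feedback genes lie on both sides of 0, from -4.13 for WNT8B to 9.02 for WNT3A among the ligands, while most receptors lie below 0.

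Sequences upstream of several of these genes are printed because TCF and LEF factors read short motifs of the form CTTTGAT or CTTTGAA. The windows are the 250 bases before a RefSeq start in GRCh38.p14, written 5′ to 3′ on the strand of the gene, with matches to either motif on either strand in capitals. Of 35116 such windows of all genes, 2.26% held CTTTGAT and 3.8% held CTTTGAA. The share with either motif was 4.27% for genes that rose, 3.35% for genes that fell and 3.76% for all tested genes, which are values side by side with no test. The windows of MIXL1 and TBXT also held a match and are not printed because annotated exons overlap them. A match describes letters and is not a binding site, and regulation from outside these windows was not examined.
SP5 (chr2:170715087-170715336, plus strand, 3 matches): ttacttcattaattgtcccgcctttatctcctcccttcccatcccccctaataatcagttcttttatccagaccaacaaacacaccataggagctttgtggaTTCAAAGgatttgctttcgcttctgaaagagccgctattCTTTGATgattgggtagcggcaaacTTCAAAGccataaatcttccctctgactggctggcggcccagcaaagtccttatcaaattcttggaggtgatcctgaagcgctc
MSGN1 (chr2:17816210-17816459, plus strand, 1 match): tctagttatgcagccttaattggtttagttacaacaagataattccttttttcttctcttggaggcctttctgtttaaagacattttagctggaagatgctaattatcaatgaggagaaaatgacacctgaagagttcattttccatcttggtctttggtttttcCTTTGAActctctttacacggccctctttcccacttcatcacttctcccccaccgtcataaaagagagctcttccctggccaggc
CDX2 (chr13:27969316-27969565, minus strand, 1 match): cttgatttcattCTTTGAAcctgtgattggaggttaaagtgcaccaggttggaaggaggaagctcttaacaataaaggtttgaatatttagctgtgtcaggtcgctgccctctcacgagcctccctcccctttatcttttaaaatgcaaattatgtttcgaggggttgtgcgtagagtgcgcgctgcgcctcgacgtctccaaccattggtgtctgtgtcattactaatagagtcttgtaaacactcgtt
HOXB1 (chr17:48531012-48531261, minus strand, 1 match): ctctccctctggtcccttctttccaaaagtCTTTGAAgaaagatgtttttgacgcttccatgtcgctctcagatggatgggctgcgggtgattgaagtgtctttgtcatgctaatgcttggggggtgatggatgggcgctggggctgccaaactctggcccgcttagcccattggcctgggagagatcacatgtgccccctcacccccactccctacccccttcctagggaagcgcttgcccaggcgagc
The 4 windows belong to the zinc finger target SP5, to MSGN1 and CDX2 of the posterior mesoderm and tail end, and to a 3′ HOX gene, each described above.

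On the side of the genes that fell, the window before NANOG held a composite SOX-OCT motif (CATTGTNATGCAAA, searched on both strands), printed because SOX2 and OCT4 bind such elements together. The motif was found in 2 of 35116 windows, both of tested genes. Among windows of genes that fell 1 held it, and among those of genes that rose 0 did, so the other carrier was not called. Before NANOG it lay 107 to 120 bases ahead of the RefSeq start used. That start lies inside the gene interval given above, whose first model begins further upstream.
NANOG (chr12:7789152-7789401, plus strand): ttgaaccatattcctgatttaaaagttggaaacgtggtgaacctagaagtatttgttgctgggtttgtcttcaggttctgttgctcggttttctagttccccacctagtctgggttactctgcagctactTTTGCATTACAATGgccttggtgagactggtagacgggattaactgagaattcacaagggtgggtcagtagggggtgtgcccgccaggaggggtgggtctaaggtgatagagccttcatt
The gene that carries it was at 29.4 CPM in the ESCs and 0.235 CPM in the gastruloids, while SOX2 kept 7.04% and POU5F1 39.6% of their ESC means.

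Retinoic acid genes split by role. Of 29 genes, 25 were tested, 14 rose and 4 fell (median log2 fold change 1.46). Of 8 tested genes for synthesis, binding and uptake, 5 rose. CRABP2, which carries retinoic acid to its nuclear receptors, went from 151 and 167 to 1195 and 1184 CPM (log2 fold change 2.91 ± 0.11, adjusted p = 5.1e-16). The paralogue CRABP1 fell, from 88.3 and 94.9 to 18.1 and 19.9 CPM (-2.26 ± 0.13, adjusted p = 5.7e-13). STRA6, the retinol uptake receptor, rose from 51.3 to 219.6 CPM and ALDH1A2, the main retinoic acid-making enzyme of mesoderm, from 4.12 to 34.7 CPM.

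Of 4 tested degradation genes, 3 fell. CYP26A1, the main enzyme that clears retinoic acid in the early embryo and a known target of it, was at 211 and 266 CPM in the ESCs, 5.72 CPM in primed H9 ESCs (mean) and 12.2 and 11.4 CPM in the gastruloids (log2 fold change -4.33 ± 0.19, adjusted p = 2.7e-15). DHRS3, which turns retinal back to retinol, fell from 38.97 and 40.1 to 14.9 and 13.2 CPM (-1.49 ± 0.15, adjusted p = 1.4e-08), and CYP26C1 fell from a mean of 12.1 to 1.05 CPM. CYP26B1 rose instead, from 0.483 and 0.648 to 19.98 and 19.1 CPM (5.22 ± 0.34, adjusted p = 4.9e-12).

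Of 7 tested receptor genes, 3 rose and 4 were not called. RXRG rose from 0.161 and 0.648 to 13.8 and 15.1 CPM (5.76 ± 0.44, adjusted p = 1.7e-10) and RARG from a mean of 44.5 to 122 CPM. RARB, the receptor gene that retinoic acid itself induces, moved only from 0.725 and 0.971 to 2.32 and 2.48 CPM (1.62 ± 0.39, adjusted p = 0.00101), and it was not called without ESC replicate 1 (log2 fold change 1.23, adjusted p = 0.160). MEIS2, a HOX cofactor, rose from 0.725 and 0.324 to 82.5 and 80.1 CPM (6.97 ± 0.22, adjusted p = 9.6e-18), SKAP2, which neighbours the HOXA cluster, from 2.82 to 156 CPM, and TGM2, a classical target, only to 5.33 CPM from 1.70 CPM. With at least 10 counts in each library, 1 receptor gene and 0 of the other targets rose, since most were near 0 in the ESCs.

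RARB and CYP26A1 both have a direct repeat of receptor hexamers spaced by 5 bases (DR5) in a window before 1 of their RefSeq starts, the letters that retinoic acid receptors read. The hexamers searched on both strands were AGGTCA, its variant AGTTCA, the form GGTTCA and the form GGGTCA, and 0.074% of all windows held such a repeat.
RARB (chr3:25428210-25428226, plus strand): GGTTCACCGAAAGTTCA
CYP26A1 (chr10:93073803-93073819, plus strand): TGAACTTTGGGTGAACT
The 2 genes that carry these letters went in opposite directions at 24 h.

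Several genes of the segmentation clock rose, while genes of formed somites stayed low. The clock is a cycle of Notch and HES gene activity that cuts presomitic mesoderm into somites. HES7, its central repressor, rose from 0.564 and 0.648 to 117 and 123 CPM (log2 fold change 7.67 ± 0.25, adjusted p = 1.3e-17), and the Notch ligand DLL3 from 16.4 and 20.7 to 576 and 587 CPM (5.04 ± 0.18, adjusted p = 5.1e-17). DLL1 rose from a mean of 17.5 to 422 CPM, whereas the ligand JAG1 fell from 214 and 223 to 55.5 and 60.05 CPM (-1.92 ± 0.12, adjusted p = 1.4e-12) and JAG2 from 18.98 to 4.90 CPM. LFNG, a glycosyltransferase of the clock, was not called (mean 159 CPM in the ESCs and 160.4 CPM in the gastruloids). Of 16 Notch and clock genes, 7 rose and 4 fell (3 rose with at least 10 counts in each library).

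Of 16 presomitic and somite factors, 8 were tested and 6 rose, through the gastruloid libraries, since 0 rose with at least 10 counts in each library. FOXC1, a forkhead factor of paraxial mesoderm, was at 0.322 and 0.648 CPM in the ESCs and 109.8 and 118 CPM in the gastruloids (log2 fold change 8.17 ± 0.26, adjusted p = 8.8e-18). MSX1, a homeobox target of BMP that is also used in neural crest, went from 0.483 and 0.648 to 122 and 132 CPM (7.92 ± 0.26, adjusted p = 2.4e-17). The somite genes MEOX1 (0.143 CPM), UNCX (0.0465 CPM), TBX18 (0.332 CPM), PAX1 (0 CPM) and MYF5 (0 CPM) stayed below 1 CPM in the gastruloids and were not tested.

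Epithelial genes fell and mesenchymal genes rose. Of 20 epithelial genes, 18 fell (median log2 fold change -3.64), and of 16 tested mesenchymal genes, 11 rose (median 2.48). CDH1, which encodes E-cadherin, went from 938 and 983 to 16.7 and 17.1 CPM (log2 fold change -5.83 ± 0.13, adjusted p = 5.6e-20). The tight junction genes CLDN3, CLDN4, CLDN7 and OCLN and the splicing factors ESRP1 and ESRP2 all fell more than 8-fold. KRT19, an intermediate filament gene, was the 1 epithelial gene that rose, from 131 and 143 to 1344 and 1379 CPM (3.32 ± 0.13, adjusted p = 2.1e-16), and KRT8 was not called.

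SNAI2, a repressor of E-cadherin, rose from 0.564 and 0.324 to 177 and 178 CPM (8.41 ± 0.26, adjusted p = 8.4e-18). VIM (87.1 to 918 CPM), FN1 (106 to 798 CPM), ZEB2 (9.56 to 82.1 CPM) and CDH11 (26.03 to 263 CPM) rose with it. CDH2, which encodes N-cadherin, was separated between groups but not called, at 181 and 179.7 CPM in the ESCs and 345 and 344 CPM in the gastruloids (0.93 ± 0.10, adjusted p = 1.2e-08). The matrix glycoprotein SPARC fell, from 1126 and 1289.5 to 492 and 497 CPM (-1.29 ± 0.10, adjusted p = 7.0e-11).

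Beside these falls stands a wider one among genes for membrane proteins, in families picked by symbol after the values were seen. Of 260 tested SLC solute carriers, 139 fell and 15 rose, and of 186 TMEM genes 82 fell and 6 rose, with medians of -1.11 and -0.93. Of 427 ZNF genes, which encode nuclear proteins, 46 fell and 28 rose (median -0.069). The summed level of the SLC genes was 26956 and 29377 CPM in the RUES2-GLR ESCs, 17245 and 17431 CPM in the gastruloids, 14608 and 14664 CPM in primed H9 ESCs and 20423 and 20861 CPM in naive H9 ESCs. Between the 2 groups compared, this went with the mitochondrial share and with the falls of surface molecules, receptors, integrins and claudins. In the other human groups, SLC sum and mitochondrial share did not keep the same order. Late RA-gastruloids had SLC sums of 9969 and 9401 CPM, below primed H9 ESCs, at mitochondrial shares of 4.90% and 6.71% against 3.01% and 2.68%. The part of this wider fall in the other falls was not tested.

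Matrix, adhesion and cytoskeleton genes were mixed. Of 30 matrix genes, 7 rose and 5 fell, while 8 fell with upper quartile scaling. COL3A1, a fibrillar collagen, rose from 0.242 and 0.324 to 32.6 and 38.5 CPM (7.06 ± 0.29, adjusted p = 1.3e-15), while the cartilage collagen gene COL9A3 fell from 164 and 183 to 23.7 and 23.9 CPM (-2.86 ± 0.13, adjusted p = 8.9e-15). Of 21 laminins and integrins, 9 fell and 2 rose. ITGA2, a collagen receptor subunit, fell from 25.6 and 25.6 to 1.02 and 0.893 CPM (-4.73 ± 0.25, adjusted p = 9.0e-14), and ITGA6, the laminin receptor subunit of ESCs, from a mean of 497 to 45.2 CPM. ITGA9 rose, from 6.44 and 7.45 to 30.8 and 32.95 CPM (2.25 ± 0.17, adjusted p = 4.3e-11).

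YAP and TAZ are cofactors that respond to cell shape and attachment. Their targets CCN1 (239.8 and 223 to 17.4 and 19.8 CPM, -3.65 ± 0.15, adjusted p = 1.2e-15) and CCN2 (119 and 120.4 to 4.74 and 5.56 CPM, -4.54 ± 0.15, adjusted p = 1.8e-17) fell. Of 16 tested targets, 8 fell and 3 rose, among them the membrane repair gene MYOF from 3.62 and 1.94 to 41.5 and 39.5 CPM (3.64 ± 0.20, adjusted p = 1.8e-13). Of 35 actin cytoskeleton genes, 8 rose and 3 fell. The crosslinker FLNC rose from 42.4 and 41.8 to 498 and 508 CPM (3.58 ± 0.13, adjusted p = 6.5e-17), the kinase gene ROCK2, whose product Y-27632 inhibits, from a mean of 26.3 to 71.5 CPM, and tropomyosin TPM1 fell from 147 and 153 to 53.1 and 50.2 CPM (-1.53 ± 0.11, adjusted p = 1.5e-11).

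FGF ligand genes differed mainly where they were near 0 in the ESCs, and most target genes of the pathway were not called. Of 13 tested ligands, 7 rose (FGF3, FGF4, FGF8, FGF9, FGF10, FGF17 and FGF18) and 2 fell (FGF2 and FGF16), but 0 rose and 1 fell with at least 10 counts in each library. FGF3 had no count in the ESCs and 29.4 and 27.9 CPM in the gastruloids, at least 148-fold higher. FGF8 and FGF4, used in the streak and tail end, rose from means of 0.887 and 1.37 to 85.5 and 103 CPM. FGF2 fell from 71.3 and 52.8 to 31.1 and 30.3 CPM (-1.06 ± 0.14, adjusted p = 9.0e-07), a call lost without ESC replicate 1 (-0.85).

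Of the 4 receptors, FGFR2 fell from 196 and 177 to 17.00 and 17.2 CPM (-3.45 ± 0.12, adjusted p = 4.5e-17) and FGFR3 from a mean of 54.6 to 13.3 CPM, and FGFR1 and FGFR4 were not called. Among 12 targets and feedback regulators, SPRED2 alone rose (26.7 and 23.6 to 80.2 and 82.6 CPM, 1.66 ± 0.12, adjusted p = 4.3e-11), joined by 1 more without ESC replicate 1 or without gastruloid replicate 1. DUSP4, an ERK phosphatase, fell (22.6 and 27.8 to 8.36 and 8.04 CPM, -1.57 ± 0.17, adjusted p = 2.1e-08), as did ETV1. DUSP6, the standard ERK readout, was at 107 and 92.6 CPM in the ESCs and 94.5 and 101 CPM in the gastruloids, with overlapping groups (-0.044 ± 0.11, adjusted p = 0.751).

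Of 15 tested NODAL and activin genes, 8 fell, among them LEFTY1 (18.8 to 0.332 CPM), GDF3 (40.9 to 1.86 CPM) and the receptor genes ACVR1B, ACVR2A and ACVR2B. CER1, a secreted antagonist, rose from 2.90 and 3.56 to 11.1 and 10.1 CPM (1.80 ± 0.25, adjusted p = 1.5e-06). In the BMP pathway, 2 of 9 tested ligands and receptors rose (1 without either ESC library or without gastruloid replicate 2) and 3 fell. BMP2 rose from 15.5 and 13.3 to 37.5 and 37.9 CPM (1.35 ± 0.15, adjusted p = 3.9e-08) and BMP7 fell from 59.02 and 74.1 to 17.9 and 18.1 CPM (-1.86 ± 0.14, adjusted p = 8.3e-11). Of 13 targets and antagonists, 6 rose, which in addition to MSX1 and MSX2 were the antagonists NOG (1.57 to 45.4 CPM), CHRD, GREM1 and BMPER (1 with at least 10 counts in each library). ID1, an early BMP readout, was not called, at 106 and 104 CPM in the ESCs and 74.3 and 77.7 CPM in the gastruloids (-0.47 ± 0.12, adjusted p = 0.00153), and ID2 fell, from 51.9 and 49.5 to 12.4 and 14.7 CPM (-1.92 ± 0.14, adjusted p = 2.9e-11).

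The RUES2-GLR ESCs carried transcripts of anterior neural factors, some of them nearly absent from primed H9 ESCs, and these fell. Of 15 forebrain and eye field factors, 11 were tested and 10 fell, most of them tested only through the ESC libraries, since 1 fell with at least 10 counts in each library. Their summed level was 426 and 389 CPM in the ESCs and 8.83 and 7.34 CPM in the gastruloids, against 69.1 and 66.1 CPM in primed H9 ESCs, where OTX2 took 41.5 CPM. LHX5, a LIM homeobox gene of the forebrain, was at 95.9 and 87.1 CPM in the ESCs, 0.209 CPM in primed H9 ESCs (mean) and 0.372 and 0.298 CPM in the gastruloids (log2 fold change -8.07 ± 0.25, adjusted p = 9.6e-18). FEZF1, a zinc finger repressor of the forebrain, was at 99.5 and 96.2 CPM, 1.13 CPM in primed H9 ESCs and 0.743 and 0.397 CPM in the gastruloids (-7.39 ± 0.23, adjusted p = 9.1e-18). SIX3, an eye field factor, was at 21.9 and 17.5 CPM in the ESCs and 0.650 and 0.0992 CPM in the gastruloids (-5.70 ± 0.40, adjusted p = 3.7e-11) and at 0 CPM in primed H9 ESCs. For each of the 3 genes the 2 groups were far apart. NKX2-1, a factor of the ventral forebrain, stood at 0 CPM in the ESCs, and whether a subset of the cells carried the others was not tested.

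Neural progenitor genes were mixed, with 5 of 14 tested members higher and 6 lower. With the 4 libraries thinned to the smallest total, 3 were higher, and 2 with at least 10 counts in each library. PAX6 fell from 5.07 and 4.86 to 0.186 and 0.298 CPM (-4.34 ± 0.46, adjusted p = 1.8e-08). SOX1, at 0.483 and 0.648 CPM in the ESCs and 0.186 and 0 CPM in the gastruloids, was too low to test. SOX21, a repressor of SOX2 targets, went from 29.4 and 32.4 CPM to 0.0929 and 0 CPM, 1 count in all (ratio 625 in favour of the ESCs, interval 112 to 24732). DLK1, an imprinted Notch-like ligand, fell from 369 to 6.11 CPM and the neuronal gene LGI1 from 53.2 to 1.80 CPM. MAP2, a microtubule protein gene, rose from 11.1 and 8.42 to 47.01 and 52.01 CPM (2.25 ± 0.16, adjusted p = 3.0e-11).

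Markers of other lineages gave mixed calls, many of them in genes near 0 in 1 group. In the endoderm and notochord list, 9 of 15 were tested, 5 rose (3 with at least 10 counts in each library) and HHEX fell, and the summed level of the list was 49.4 and 59.9 CPM in the ESCs and 309 and 317 CPM in the gastruloids. SOX17, a factor of definitive endoderm, rose from 4.43 and 3.89 to 21.5 and 21.3 CPM (2.32 ± 0.23, adjusted p = 5.0e-09), and CXCR4, a chemokine receptor shared with mesoderm, from 16.6 and 24.6 to 245 and 255 CPM (3.71 ± 0.15, adjusted p = 7.4e-16). CXCR4 alone held most of the summed gastruloid level, so the higher sum does not describe the other members. FOXA2, the defining factor of endoderm and floor plate, was not called, at 0.725 and 1.62 CPM in the ESCs and 1.21 and 1.49 CPM in the gastruloids (0.55 ± 0.49, adjusted p = 0.339). NOTO and SHH, which mark notochord, were at 0.0496 and 0.143 CPM in the gastruloids.

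In the cardiac and lateral mesoderm list, 7 of 17 were tested and 5 rose (1 with at least 10 counts in each library), with a summed level of 123 and 115 CPM in the ESCs and 85.5 and 78.6 CPM in the gastruloids. GATA4, a cardiac and endodermal factor, had 0 and 0.324 CPM in the ESCs and 4.09 and 4.76 CPM in the gastruloids (ratio 68.5, interval 11.99 to 2733). ACTC1, the cardiac actin gene, rose from 6.28 and 8.74 to 22.9 and 24.3 CPM (1.77 ± 0.19, adjusted p = 2.7e-08). The adhesion gene ALCAM fell, from 109 and 95.8 to 14.6 and 14.7 CPM (-2.82 ± 0.13, adjusted p = 9.2e-15). It held most of the summed ESC level, so the lower sum in the gastruloids does not describe the other members. NKX2-5, TNNT2 and MYH6 stayed below 1 CPM.

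The endothelial receptor gene KDR, also found in ESCs, fell from 97.8 and 106 to 14.96 and 15.8 CPM (-2.72 ± 0.13, adjusted p = 1.8e-14), and of 10 tested endothelial and blood markers 6 fell and 3 rose, 3 falling and 0 rising once the 4 libraries were thinned to equal totals. In the amnion and trophectoderm list, GABRP fell from 14.5 and 14.9 to 0.372 and 0.298 CPM (-5.41 ± 0.34, adjusted p = 2.4e-12), 4 of 7 tested genes fell and 3 rose (2 and 0 with at least 10 counts in each library). The germ cell receptor gene KIT fell from 101 and 95.2 to 8.92 and 8.14 CPM (-3.53 ± 0.16, adjusted p = 4.1e-15). Of 9 germ cell genes with data, 5 were tested, of which 3 fell and 2 rose. Among 10 tested neural crest markers, 5 rose (1 with at least 10 counts in each library) and 4 fell, and SOX10, the defining factor of migrating crest, fell from 4.92 to 1.73 CPM.

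Several of the largest changes lay outside these lists. KIF26B, a kinesin-like gene of planar polarity signalling, rose from 0.805 and 0 to 103 and 113 CPM (log2 fold change 7.39 ± 0.25, adjusted p = 3.3e-17), and HHIPL2, a gene of little known function, from 0.322 and 0 to 40.9 and 40.9 CPM (7.27 ± 0.34, adjusted p = 2.6e-14). Both were below 1 CPM in the 2 RUES2-GLR ESC libraries. SEZ6, a neuronal membrane gene, had the largest fitted fall by the same rule of levels, from 68.9 and 89.4 to 0.465 and 0 CPM (-8.29 ± 0.34, adjusted p = 9.1e-16).

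SHISA2, which holds back FGF and WNT receptors in the endoplasmic reticulum, fell from 188 and 192 to 1.11 and 1.39 CPM (-7.24 ± 0.19, adjusted p = 4.1e-19). PKDCC, a secreted kinase gene, fell from 341 and 403 to 3.44 and 2.48 CPM (-6.96 ± 0.20, adjusted p = 1.8e-18). VWF, the clotting factor gene otherwise typical of endothelium, fell from 132 and 142 to 0.557 and 0.992 CPM (-7.46 ± 0.24, adjusted p = 1.1e-17), against 1.26 CPM in primed H9 ESCs. KLHDC7A (32.7 and 32.4 to 0.372 and 0 CPM) and the antisense transcript JAKMIP2-AS1 (49.8 and 47.9 to 0.465 and 0 CPM) completed the 10 largest falls, which also hold LHX5, FEZF1, TDGF1 and NANOG. The counts of JAKMIP2-AS1 cannot be told apart from those of its partner strand where the 2 overlap.

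Metabolic genes held some of the largest gains in CPM. ENO1 and PKM, enzymes of the last steps of glycolysis and both among the 5 largest gains, rose from 2275 and 2524 to 5639 and 5631 CPM (1.23 ± 0.10, adjusted p = 4.1e-10) and from 1041 and 1089.8 to 3181 and 3199.5 CPM (1.58 ± 0.11, adjusted p = 7.8e-12). Of 21 glycolysis genes, 9 rose and SLC16A1 alone fell (median log2 fold change 0.93). HK2, the inducible hexokinase, rose from 182 and 162 to 516 and 534 CPM (1.60 ± 0.10, adjusted p = 2.2e-12). The lactate exporters went in opposite directions. SLC16A3 (MCT4) rose from 168 and 215 to 694 and 698 CPM (1.88 ± 0.13, adjusted p = 1.5e-11) and SLC16A1 (MCT1) fell from 2279.5 and 2249 to 534 and 533 CPM (-2.09 ± 0.11, adjusted p = 5.5e-14). SLC2A1, the main glucose importer gene, was not called (2584 and 3028 CPM in the ESCs and 3269 and 3409 CPM in the gastruloids, 0.25 ± 0.11). The level of ALDOA, 64.8 CPM in the gastruloids, is uncertain because overlapping annotation can take reads from a gene.

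Of 17 tested hypoxia response genes, 11 rose (median 1.35). DDIT4, an inhibitor of mTOR signalling induced by low oxygen and other stress, went from 323 and 355 to 1879 and 1884 CPM (2.47 ± 0.11, adjusted p = 8.6e-15), and NDRG1 from 7.25 and 5.83 to 188 and 195 CPM (4.80 ± 0.15, adjusted p = 6.7e-18). ADM, the adrenomedullin gene, was the 1 member that fell, from 274 and 302 to 111 and 110.5 CPM (-1.38 ± 0.11, adjusted p = 1.6e-10). VEGFA was not called (89.9 and 100.04 CPM in the ESCs and 133 and 136 CPM in the gastruloids, 0.51 ± 0.11, adjusted p = 2.8e-04).

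The 5 largest losses in CPM were transcripts of the mitochondrial genome, and all 13 of its protein-coding transcripts fell (median -2.54). MT-CO1, a subunit of complex IV, was at 50692 and 55274 CPM in the ESCs and 8873 and 9151 CPM in the gastruloids (-2.56 ± 0.12, adjusted p = 7.9e-15), and at 4360.4 CPM in primed H9 ESCs. MT-RNR2, a mitochondrial ribosomal RNA, was at 66258 and 71855 CPM in the ESCs and 15057 and 14948 CPM in the gastruloids (-2.20 ± 0.13, adjusted p = 4.3e-13). MT-CO2 (-2.90 ± 0.12, adjusted p = 9.7e-16), MT-CO3 (-2.44 ± 0.12, adjusted p = 2.0e-14) and MT-ND4 (-1.95 ± 0.13, adjusted p = 9.3e-12) followed. For MT-CO1 the gastruloid level lay closer to that of primed H9 ESCs than to that of the RUES2-GLR ESCs.

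Nuclear genes for the same complexes were mostly not called. Of 74 tested nuclear oxidative phosphorylation genes, 1 rose and 5 fell (median -0.063), both shares below the background. NDUFA3 (67.5 and 80.9 to 29.1 and 25.6 CPM, -1.41 ± 0.15, adjusted p = 3.3e-08) and COX6A1 (68.2 and 73.2 to 26.9 and 28.9 CPM, -1.33 ± 0.13, adjusted p = 3.4e-09) fell furthest. NDUFV1 rose at the edge of the fold threshold (62.9 and 70.6 to 142 and 129 CPM, 1.04 ± 0.12, adjusted p = 8.6e-08), and its call was lost under 7 alternatives, including without ESC replicate 1 (0.87) and without gastruloid replicate 1 (0.97). Without gastruloid replicate 1, 2 and not 4 complex I genes fell, and without ESC replicate 1, 2 and not 1 of complexes II to IV.

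In the citric acid cycle, 2 of 18 genes rose (1 without either ESC library), among them IDH2 from 101 and 119 to 242 and 238 CPM (1.14 ± 0.13, adjusted p = 3.3e-08), which was not called without ESC replicate 1 (0.94). In the pentose phosphate pathway RPIA (15.1 and 14.9 to 43.2 and 43.4 CPM, 1.53 ± 0.14, adjusted p = 1.9e-09) and DERA rose of 10 genes. Of 71 cytoplasmic ribosomal protein genes none was called in the edgeR fit, 29 had an unadjusted p under 0.05, DESeq2 called 0 and the fit without ESC replicate 1 called 1 (median -0.066). Of 75 mitochondrial ones, MRPS6 rose (45.4 and 37.9 to 114 and 106 CPM, 1.37 ± 0.13, adjusted p = 3.0e-09) and 2 fell, led by MRPL32 (112 and 119 to 46.6 and 49.8 CPM, -1.25 ± 0.11, adjusted p = 1.1e-09), the only fall left without ESC replicate 1 or without gastruloid replicate 1 (1 gene). PABPC1, which binds poly(A) tails, was among the 5 largest CPM gains (2088 and 2127 to 4268 and 4338 CPM) at a log2 fold change of 1.03 ± 0.10 (adjusted p = 2.1e-09), so close to the threshold that 9 alternatives lost the call, including without ESC replicate 1 (0.95) and without ESC replicate 2 (0.97).

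**Figure D4:**
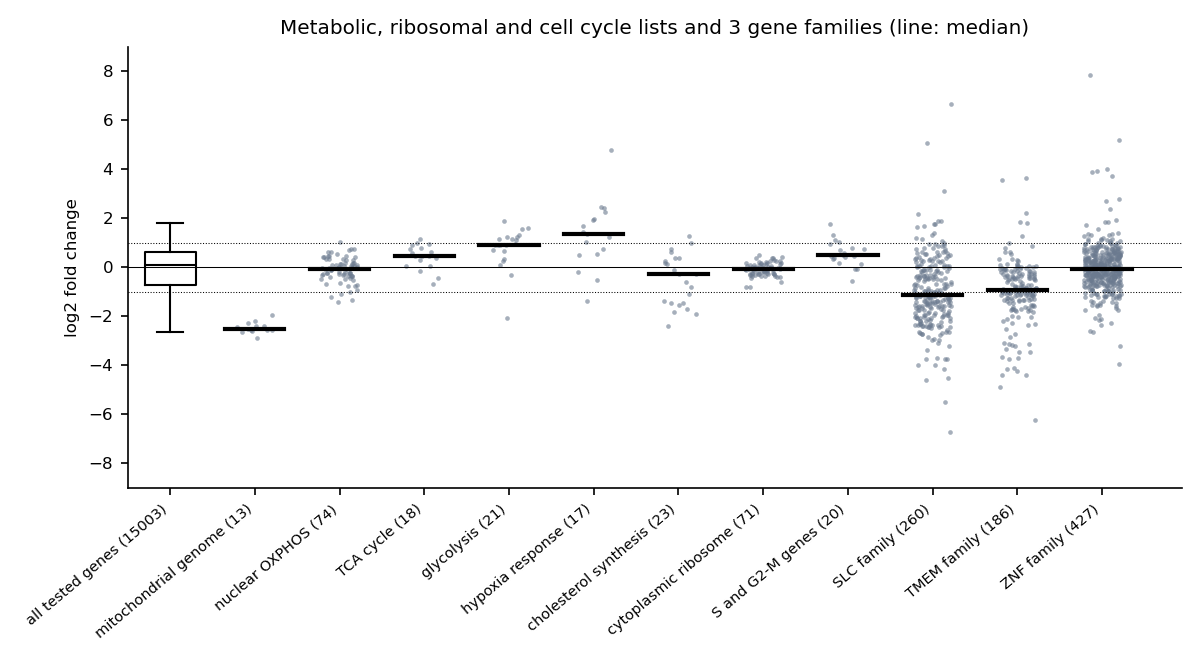
Log2 fold change (y axis) of each tested member of 8 gene lists and 3 symbol families (x axis, tested genes in brackets, black line at the median), beside a box of all tested genes (box from the 25th to the 75th percentile, whiskers from the 5th to the 95th). The mitochondrial genome lies near -2.54, nuclear oxidative phosphorylation near -0.063 and the SLC family near -1.11.

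Of 23 cholesterol genes, 9 fell and LSS, which closes the sterol rings, rose (67.5 and 81.9 to 179 and 175 CPM, 1.27 ± 0.13, adjusted p = 9.5e-09), with 1 more rising without ESC replicate 1 or without gastruloid replicate 2. MSMO1 fell furthest, from 522 and 489.8 to 98.9 and 92.8 CPM (-2.40 ± 0.12, adjusted p = 2.1e-14). HMGCS1, the first committed enzyme, was not called (202 and 164 CPM in the ESCs and 203 and 210.2 CPM in the gastruloids, 0.16 ± 0.11, adjusted p = 0.213).

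Most cell cycle genes were not called. Of 20 S and G2-M genes, 4 rose, 2 with upper quartile scaling (median 0.49), the thymidylate synthase gene TYMS from 24.96 and 27.2 to 85.2 and 90.5 CPM (1.77 ± 0.14, adjusted p = 2.2e-10). In the edgeR fit none fell, 1 had an unadjusted p under 0.05 in that direction, and DESeq2 called 0. CDKN1A, which encodes the CDK inhibitor p21, rose from 10.7 and 14.9 to 105 and 112 CPM (3.20 ± 0.15, adjusted p = 8.6e-15), and CDK4, CDK6 and RB1 also rose, of 14 tested G1 genes. CCND2 was not called (77.9 and 76.4 CPM in the ESCs and 114 and 113 CPM in the gastruloids, 0.55 ± 0.13, adjusted p = 4.9e-04). Of 20 p53 targets, 8 rose, BTG2 from 17.7 to 97.2 CPM, while MDM2 was not called (mean 35.8 CPM in the ESCs and 41.9 CPM in the gastruloids) and the death receptor gene TNFRSF10B fell, from 194 and 214 to 90.2 and 107 CPM (-1.04 ± 0.11, adjusted p = 2.2e-08). That fall was not called without gastruloid replicate 1 (-0.93), and 2 targets fell without ESC replicate 2.

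Of 16 genes of the unfolded protein and amino acid responses, 8 fell and 1 rose. CHAC1, a glutathione-degrading enzyme gene, fell from 29.6 and 29.8 to 4.37 and 5.46 CPM (-2.59 ± 0.17, adjusted p = 8.3e-12) and XBP1 from a mean of 411 to 71.2 CPM. ATF3 rose, from 20.2 and 18.5 to 41.7 and 49.5 CPM (1.21 ± 0.14, adjusted p = 4.9e-08), and DDIT3 had overlapping groups (2.58 and 1.94 CPM in the ESCs and 1.86 and 3.57 CPM in the gastruloids, 0.15 ± 0.34, adjusted p = 0.724).

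Among growth regulators, 4 of 12 rose, including IGF2BP1 (311 to 827 CPM), HMGA2 (235 to 503 CPM) and the growth factor gene IGF2 (2.17 and 3.56 to 20.8 and 21.7 CPM, 3.10 ± 0.25, adjusted p = 2.1e-10). MYC fell from 30.3 and 31.1 to 8.64 and 8.63 CPM (-1.82 ± 0.14, adjusted p = 1.2e-10), whereas its paralogue MYCN was higher within the fold threshold, at 65.6 and 64.4 CPM in the ESCs and 106 and 108 CPM in the gastruloids (0.71 ± 0.11, adjusted p = 5.6e-06). In the chromatin list, DNMT3A was not called (109 and 96.5 CPM in the ESCs and 98.1 and 91.9 CPM in the gastruloids, -0.12 ± 0.11, adjusted p = 0.312) beside the fall of DNMT3B, and EED, a Polycomb subunit, rose from 18.7 and 16.2 to 40.3 and 41.1 CPM (1.18 ± 0.14, adjusted p = 7.3e-08).

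Side by side, the lists span the whole range of calls. Pluripotency, epithelial and forebrain lists lie mostly on the lower side, streak, CDX, HOX and mesenchymal lists on the higher side, and ribosomal and nuclear oxidative phosphorylation lists close to 0 on both.

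**Figure D5:**
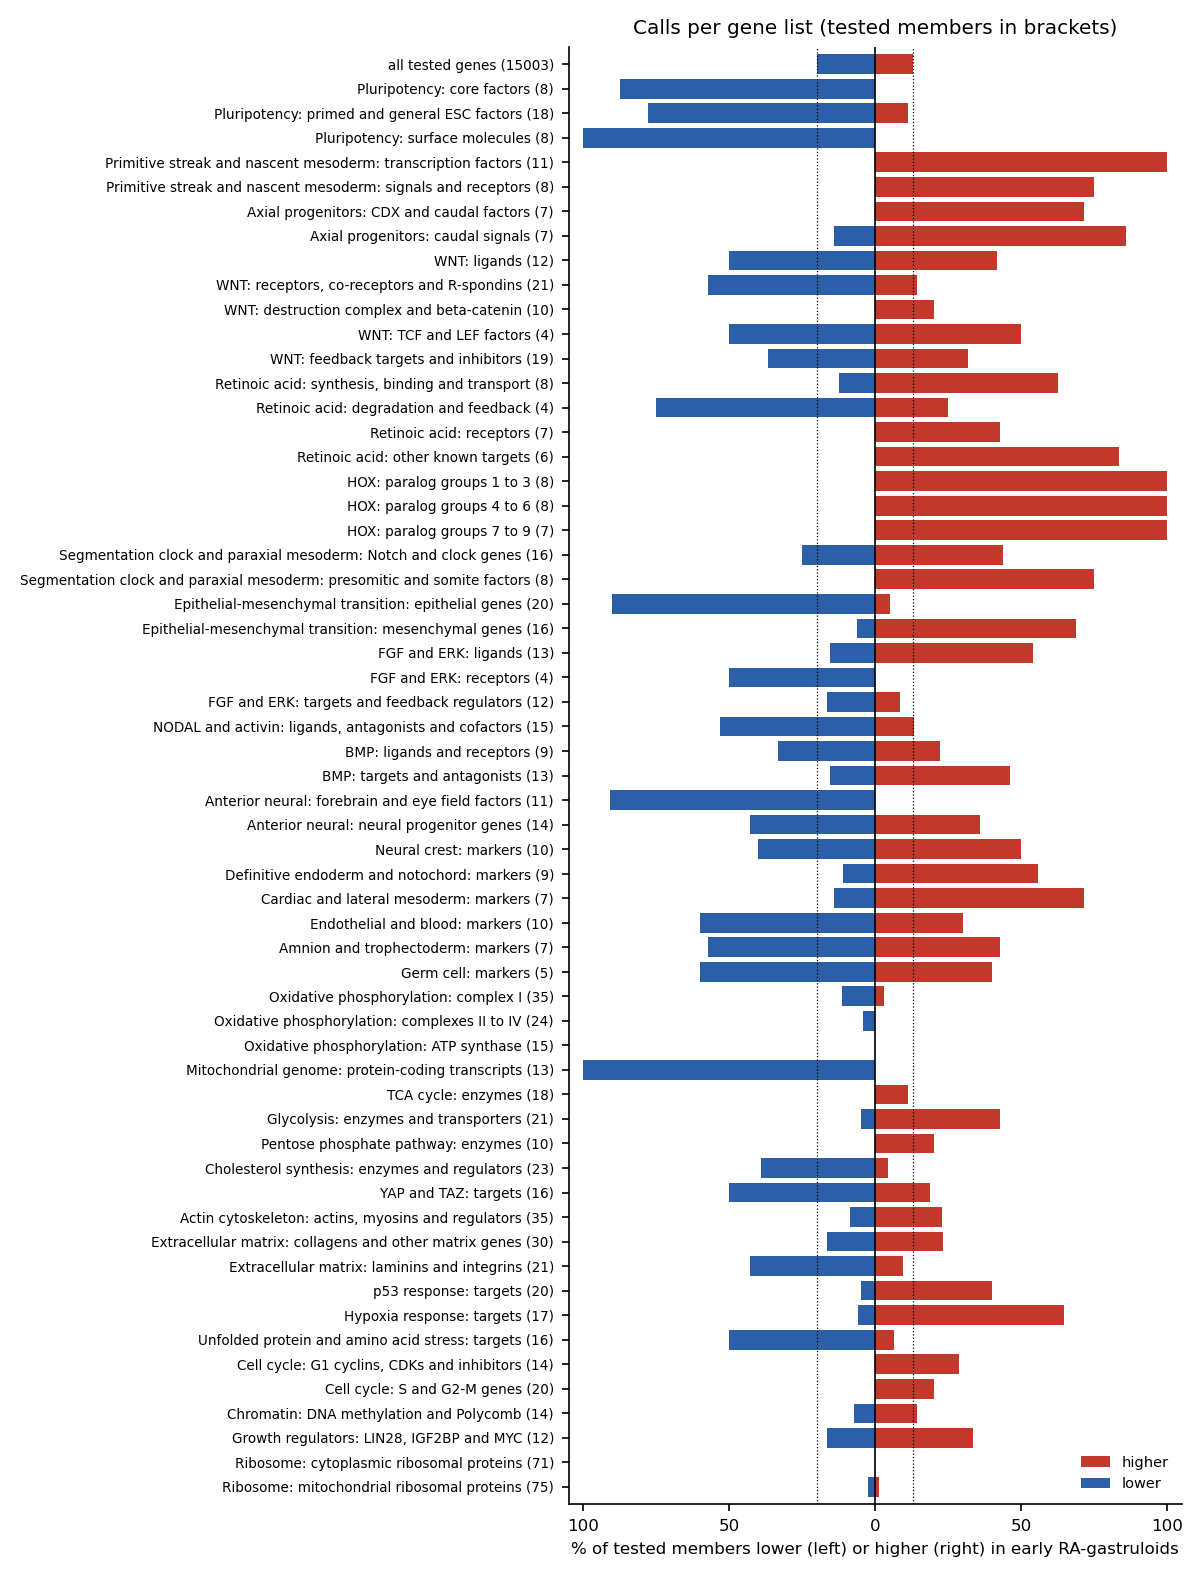
Percent of the tested members of each gene list (rows, tested members in brackets, lists with at least 4) that fell (blue, left) or rose (red, right) in early RA-gastruloids. The dotted lines mark the shares over all tested genes, 20.1% and 12.7%, and the bars of the HOX lists reach the right edge, since those genes passed the filter only through the gastruloid libraries.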

How the data were processed

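Per the labels and the study's methods, RNA of each stage was made into poly(A)-selected libraries, sequenced as paired ends, and processed by the authors with Trimmomatic 0.39, STAR on GRCh38 and featureCounts at its default settings, so reads with several alignments were dropped and strand was not used, and paralogues, pseudogenes and overlapping genes are uncertain. Base calls came from bcl2fastq 2.20. The sequencing configuration of each sample and the annotation release were not given in the sources used here. The deposited values are raw counts per gene. The table named 44876 of 44910 genes by symbol, no row lacked a gene, and all columns were mapped to labels. Gene positions are those of the file (GRCh38).

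Counts of the 10 human libraries were fitted in edgeR 4.0.16 (R 4.3.3) with TMM scaling, 1 coefficient per group and glmQLFTest, so the groups share 1 estimate of spread. Genes passed filterByExpr (minimum count 10) on the 4 libraries compared. DETs had a Benjamini-Hochberg adjusted p below 0.05 over the 15003 tested genes, with a log2 fold change past 1 in either direction, and SE is the absolute log2 fold change over the square root of F. With 0 counts in a group, folds are bounds against 3 counts over both its libraries. With 1 to 3 counts, they are ratios with exact 95% intervals (SciPy 1.17.1), for counting error only. In simulated counts for this comparison on 15003 genes, 194 of 200 genes changed 4-fold were recovered with 0 false calls. The 2 groups had equal means for all other genes there, and the spread was the trend of the same fit. The simulation therefore does not test scaling under a shift as broad as that in these data, or spread particular to a gene.

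The members and gene lists were chosen with earlier results of these data known. Of 955 list genes, 3 were not in the table and 851 were tested. Named with full statistics were the 10 largest rises and falls among DETs at or above 10 CPM in the higher group (with over 3 counts in a library of the lower group), the largest rise and fall of each list at or above 10 CPM, the 5 largest CPM gains and losses, and the key genes of each list. Other list members were named after their values were seen, and a few genes are not reported here. Upstream sequences and gene starts are from RefSeq (GRCh38.p14) by symbol, and no protein sequences were used. The alternatives tried were other scalings, tools, filters, thinned depth, a replicate block and leaving out each library. Mouse samples were not analysed here.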

Additional observations from a re-analysis of the deposited data

How the results depend on the processing

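Of 139 named genes tested, the 123 called ones never turned direction under the alternatives that tested them. At the same thresholds 7 had a change of call, while the filter of at least 10 counts in each library left 46 untested and the adjusted p alone would call 8 more. Counts that moved by over 1.5 times were those with at least 10 counts in each of the 4 libraries (1035 higher, 3185 in all, with 2150 lower), since this filter drops every gene near 0 in 1 group, the HOX and most streak genes included, and those by adjusted p alone (5139 higher, 4679 lower, 9818 in all). With DESeq2 (1.42.0) 1611 rose and 3063 fell, with upper quartile scaling 1550 and 3360 (median of all genes -0.054 in place of 0.073), with the 4 libraries thinned to the smallest total 1495 and 2461, and without the mitochondrial genome, an alternative chosen after seeing the data, 1691 and 3184. Leaving out 1 library gave 1652 to 1882 genes higher, 2850 to 3139 lower and 4530 to 4848 in all. Leaving out 1 library, log2 fold changes of 4 uncalled genes near 0 changed sign, ranging from -0.39 to 0.55 for DDIT3 (below 0 without replicate 2 of either group), -0.20 to 0.0092 for DUSP6 (above 0 without replicate 1 of either group), -0.33 to 0.82 for FOXA2 (below 0 without ESC replicate 1) and -0.036 to 0.26 for HMGCS1 (below 0 without ESC replicate 2). The cause was not tested.

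The replicate numbers are shared only by name, since deviations of same-numbered libraries correlated at -0.019 over genes. With the replicate number as a block, 1917 genes rose and 3004 fell, 4921 in all, and no named gene changed its call. Depth limits calls for genes with few counts, above all through ESC replicate 2.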

Other observations

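Gene families picked by symbol after the values were seen gave further descriptions, to be read against the 12.7% of tested genes that rose and 20.1% that fell. Antigen presentation genes were high in the RUES2-GLR ESCs and low in the gastruloids. Of 18 tested HLA genes and pseudogenes, 15 fell and none rose in the edgeR fit, where 0 had an unadjusted p under 0.05 in that direction. Their summed level was 2202 and 2526 CPM in the ESCs, 682 and 673 CPM in the gastruloids and 708 and 736 CPM in primed H9 ESCs. The peptide transporter gene TAP1 went from 45.8 and 48.9 to 4.18 and 4.57 CPM (log2 fold change -3.43 ± 0.17), and the immunoproteasome gene PSMB8 from 16.8 and 22.02 to 1.11 and 1.49 CPM (-3.83 ± 0.26). Reads shared between HLA genes were dropped in counting, so levels of single HLA genes are uncertain. All 12 tested PCDHB protocadherins fell (median log2 fold change -3.04). Most of these passed the filter only through the ESC libraries, so their count is a description. Only PCDHB10 and PCDHB14 had at least 10 counts in each of the 4 libraries. Of 20 semaphorins, which guide migrating cells, 10 fell and 1 rose.

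The fall of membrane protein genes was not limited to the SLC and TMEM families. Of the ALG enzymes, which build the sugar chain of glycoproteins in the endoplasmic reticulum, 9 of 13 fell, of TMED cargo receptors 5 of 9, of the EMC membrane insertion complex 4 of 9, of tetraspanins 10 of 17 and of synaptotagmins 9 of 14. The summed level of the ALG genes was 767 and 835 CPM in the RUES2-GLR ESCs and 296 to 341 CPM in the other 8 human libraries. Of families of mostly soluble and nuclear proteins, 2 of 50 proteasome genes fell and 2 rose, and 3 of 63 translation factors fell and 8 rose. Of 30 Mediator subunits 1 fell and 1 rose, and of 17 lysine demethylases 7 rose and 0 were called lower. Not every family set the RUES2-GLR ESCs apart: the synaptotagmins summed to 260.4 and 261 CPM there and 287 and 281 CPM in primed H9 ESCs, and the EMC genes to 894 and 993 CPM against 849.8 and 887 CPM in naive H9 ESCs. No cause was tested.

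Across the 15003 tested genes, which are not independent, log2 fold change and gene length had a Spearman correlation of 0.0486, against 0.171 for the log2 ratio of the 2 ESC libraries and 0.0217 for that of the 2 gastruloid libraries.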
